A study of Mus musculus with 8 samples.

Results

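The 10 genes described here belong to the spinal motor neuron lineage and were followed in mouse embryos with and without the PRDM-family zinc-finger factor Prdm12: Mnx1, Isl2, Olig2, Olig1, Chat, Slc5a7, Slc18a3, Aldh1a2, Etv4 and Foxp1. They were chosen by name as 10 of the 38355 genes in the count files, and 9 of the 10 could be matched to a row. The identifier of Slc18a3 in the annotation matched no row, so this gene was not analysed here. The tissue was thoracic dorsal root ganglia collected with the spinal cord beside them, from C57Bl6 embryos at stage E11.5. RNA sequencing libraries of 4 wild-type samples (WT) were compared with 4 of genotype Prdm12-/- (KO). The labels leave out whether a library came from 1 embryo or a pool, or which part of Prdm12 was removed. The p-values therefore measure the spread between these libraries, part of which may be technical.

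Motor neurons arise from the pMN domain, a band of ventral spinal progenitors that is set up by Sonic hedgehog and marked by the transcription factor Olig2. On leaving the cell cycle they switch on Mnx1, Isl1, Isl2 and Lhx3, then the genes for making and recycling acetylcholine, their transmitter. Hox genes and Foxp1 then sort them into columns that differ between limb and thoracic levels. Several of these genes are also used outside motor neurons. Isl2 is expressed in sensory neurons of the ganglia, Aldh1a2 in somites and meninges, and Foxp1 in other neurons. In such bulk tissue, fewer cells of a type and less RNA per cell cannot be told apart.

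Libraries held 23088908 to 67782435 counts, the largest being WT replicate 1, at 2.55 times the median of the other 7. Prdm12 stood at 22.2 to 39.6 CPM (read counts scaled to library size) in WT and 0.962 to 1.55 CPM in KO, so the targeted gene matched every label. Of 16068 genes tested with edgeR's quasi-likelihood test, 48 passed a Benjamini-Hochberg adjusted p of 0.05, 9 higher and 39 lower in KO. Libraries also differed in Y-linked genes, which were high in WT replicates 2 and 3 and KO replicates 1 and 2 and low in the other 4, so both kinds were in both groups. Some Hox genes of caudal levels differed several-fold between libraries of the same group. Hoxc10, a gene of lumbar levels, stood at 16.2, 35.9, 36.2 and 70.2 CPM in WT replicates 1 to 4, and KO replicates 1 to 4 held 47.3, 59.7, 7.5 and 7.0 CPM. The groups overlapped in it (log2 fold change −0.37, SE 0.85, edgeR adjusted p = 0.975).

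No motor neuron gene followed here passed the test over all genes, and Isl2 came nearest to it. Of the 8 genes that passed the filter on low counts, 0 were called at an adjusted p of 0.05 in edgeR, where 0.299% of all tested genes were. At an unadjusted p under 0.05 there was 1 of 8, Isl2, against 6.35% of all tested genes. DESeq2 and limma-voom each called 1, the same gene, where they called 100 of 25968 and 115 of 16068 genes over all. The groups did not overlap for 1 of 8, again Isl2, against 4.14% of all tested genes. The log2 fold changes of the 8 had a median of 0.053, beside −0.003 over all tested genes, and the median size without sign was 0.12 beside 0.06. Olig1 did not pass the filter and Slc18a3 had no row, so neither is in these counts.

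**Figure D1:**
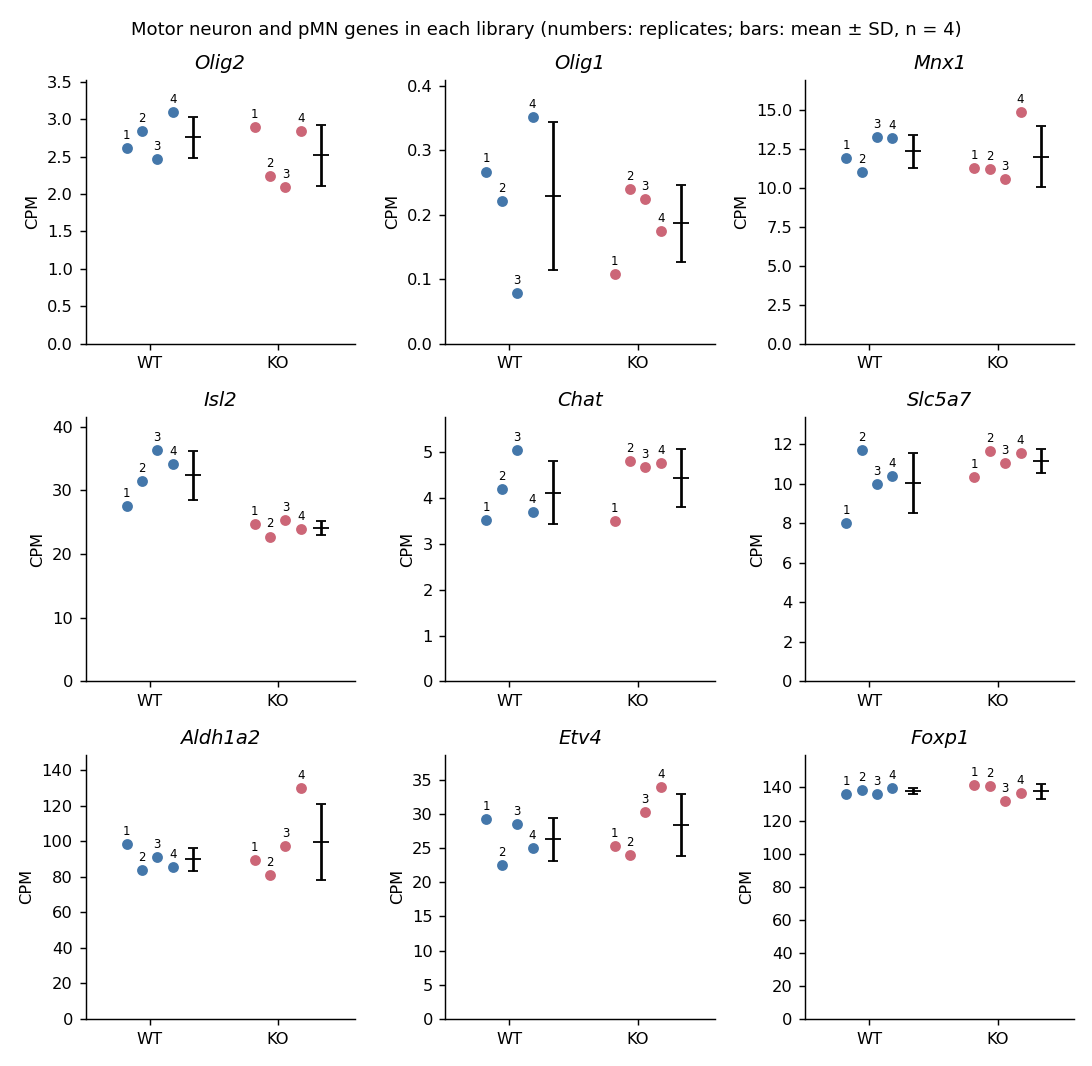
CPM (vertical axes, from 0) of the 9 measured genes in each WT library (blue) and KO library (red), with replicate numbers beside the points and the mean ± SD (n = 4) as a bar. The 4 KO points of Isl2, 22.7 to 25.3 CPM, lie under the 4 WT points, 27.5 to 36.3 CPM, and for the other 8 genes the groups overlap.

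The progenitor factors were measured with the fewest reads. Olig2 (ENSMUSG00000039830, mm10 chromosome 16, 91225457 to 91228677, plus strand), the basic helix-loop-helix factor that defines the pMN domain, stood at 2.61, 2.84, 2.47 and 3.10 CPM in WT replicates 1 to 4. In KO replicates 1 to 4 it stood at 2.89, 2.24, 2.10 and 2.84 CPM. KO replicates 2 and 3 lay under the lowest WT library, and KO replicates 1 and 4 lay within the WT range. The means were 2.76 ± 0.275 in WT against 2.52 ± 0.406 CPM in KO (n = 4 each, SD), a log2 fold change of −0.13 (SE 0.15, 95% interval −0.45 to 0.19, edgeR adjusted p = 0.952). Between 56 and 176 reads per library carried these values. The coefficient of variation among WT libraries, 9.99%, was no larger than the 10.5% that counting alone gives at these read numbers. Among KO libraries it was 16.1%, above the 12.6% from counting. The interval reaches from a KO level 0.73 times that of WT to one 1.14 times it, so a smaller loss of Olig2 was not detectable at this depth.

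Olig1 (ENSMUSG00000046160, chromosome 16, 91269772 to 91271933, plus strand), the neighbouring paralogue that serves mainly in the later oligodendrocyte lineage, was near the limit of detection. It had 18, 6, 2 and 10 reads in WT replicates 1 to 4 and 3, 6, 6 and 4 reads in KO replicates 1 to 4. The ranges, 0.0784 to 0.352 CPM in WT and 0.108 to 0.24 CPM in KO, overlapped. Fitted without a filter on low counts, Olig1 had a log2 fold change of −0.35 (edgeR adjusted p = 0.916). Per Olig2 read there were 0.102, 0.0779, 0.0317 and 0.114 Olig1 reads in WT and 0.0375, 0.107, 0.107 and 0.0615 in KO, with no separation of the groups. An exon of Olig1 overlaps the annotated non-coding gene Gm15966 by 157 bp, and Gm15966 had 0 reads in all libraries together.

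Factors upstream of Olig2 and those of the neighbouring progenitor domains were likewise not called. Of 10 tested genes in that list (11 were listed), 0 rose and 0 fell, with a median log2 fold change of −0.06. Nkx6-1, a homeobox factor that acts upstream of Olig2, had a log2 fold change of 0.11 (31.0 ± 1.86 CPM in WT, 33.6 ± 1.04 CPM in KO, n = 4 each, SD, adjusted p = 0.822). Neurog2, the proneural factor that acts with Olig2, had one of −0.24 (48.4 ± 6.55 and 41.1 ± 4.01 CPM, adjusted p = 0.743). Its 2 highest libraries were WT replicates 1 and 4, at 55.5 and 52.4 CPM.

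Of the 2 homeobox genes of newly formed motor neurons among those followed, Isl2 was lower in every KO library than in any WT library, while Mnx1 overlapped between the groups. Mnx1, also known as HB9, is the marker most restricted to motor neurons in the spinal cord, whereas Isl2 is shared with ganglion sensory neurons. Their promoter windows are printed because the results below set the 2 genes against each other. RefSeq promoter windows in GRCm38.p6, from 250 bases before the start to 50 after it, were found for 8 of the 10 genes. Capitals mark matches to CANNTG, the E-box bound by basic helix-loop-helix factors, which reads the same on both strands.
Mnx1, chr5:29478421-29478720, minus strand: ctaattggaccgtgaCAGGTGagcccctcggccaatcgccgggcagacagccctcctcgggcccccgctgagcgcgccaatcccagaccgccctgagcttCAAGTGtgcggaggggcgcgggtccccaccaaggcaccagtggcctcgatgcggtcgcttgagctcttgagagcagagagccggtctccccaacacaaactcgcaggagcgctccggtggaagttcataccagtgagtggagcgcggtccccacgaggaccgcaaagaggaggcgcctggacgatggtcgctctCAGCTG
Isl2, chr9:55540899-55541198, plus strand: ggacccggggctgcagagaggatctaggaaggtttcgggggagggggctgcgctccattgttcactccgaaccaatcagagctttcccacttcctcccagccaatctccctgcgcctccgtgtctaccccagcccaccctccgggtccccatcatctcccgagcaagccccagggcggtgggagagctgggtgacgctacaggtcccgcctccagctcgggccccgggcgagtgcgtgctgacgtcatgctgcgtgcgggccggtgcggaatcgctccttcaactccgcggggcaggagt
The Mnx1 window held 3 matches and the Isl2 window 0, while 72.3% of 32851 promoter windows of the same length held at least 1. The homeodomain core TAAT, read on either strand, occurred 1 time in the Mnx1 window and 0 times in that of Isl2, against 58.0% of all windows with at least 1. These are letter matches only. The Mnx1 window spans the start of the gene as annotated here (29478470). The Isl2 window, from 55540899, lies inside the annotated gene, which begins at 55538672, so the sequence around that first base was not searched.

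Mnx1 (ENSMUSG00000001566, chromosome 5, 29473034 to 29478470, minus strand) stood at 11.9, 11.03, 13.2 and 13.2 CPM in WT replicates 1 to 4. It stood at 11.2, 11.2, 10.6 and 14.9 CPM in KO replicates 1 to 4. KO replicate 4 was the highest of all 8 libraries and KO replicate 3 the lowest, so the WT range lay inside that of KO. The means were 12.3 ± 1.07 in WT against 11.97 ± 1.95 CPM in KO (n = 4 each, SD). The log2 fold change was −0.04 (SE 0.11, 95% interval −0.29 to 0.20, edgeR adjusted p = 0.978), so a KO level under 0.82 or over 1.15 times that of WT lay outside the interval.

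Isl2 (ENSMUSG00000032318, chromosome 9, 55538672 to 55546180, plus strand) stood at 27.5, 31.4, 36.3 and 34.2 CPM in WT replicates 1 to 4. In KO replicates 1 to 4 it stood at 24.7, 22.7, 25.3 and 23.9 CPM. Every KO library lay under every WT library, and WT replicate 1 was the nearest to KO. The means were 32.4 ± 3.82 in WT against 24.1 ± 1.10 CPM in KO (n = 4 each, SD). The log2 fold change of −0.42 (SE 0.08, 95% interval −0.60 to −0.24) had an unadjusted p of 0.000359 in edgeR and missed the threshold over all genes (adjusted p = 0.0916). It passed with DESeq2 (adjusted p = 0.00264), limma-voom with quality weights (adjusted p = 0.0102), all genes kept (adjusted p = 0.0149) and without WT replicate 1 (adjusted p = 0.00492, log2 fold change −0.49). Over all alternatives its adjusted p ranged from 0.00264 to 0.999, the highest with a muscle and mesenchyme score in the model. With that score in the model the log2 fold change was −0.43. The score was higher in every KO library than in any WT library, so this fit cannot tell it from genotype. Scaling to the counts of pan-neuronal genes, which moved the median of all genes to 0.136, gave Isl2 a smaller change of −0.27 (adjusted p = 0.179). Among libraries high in Y-linked genes the difference of mean log2 CPM was −0.51, and among those low in them −0.32, with 2 libraries of each group in each.

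Some markers of ganglion sensory neurons were lower in the same libraries. Of 13 tested markers (14 were listed), 6 fell, 0 rose and 7 did not pass, where 0.299% of all tested genes were called. Their log2 fold changes had a median of −0.48, with 12 negative and 1 positive. Their summed level was 441 to 542 CPM in WT and 373 to 405 CPM in KO, with WT replicate 1 again the lowest WT library, and none of the 13 was at 0. Among them Pou4f1, which encodes the sensory homeodomain factor Brn3a, fell from 93.9 ± 9.37 to 65.3 ± 4.69 CPM (n = 4 each, SD, edgeR adjusted p = 0.0188). Tlx2, a homeobox gene of sensory and autonomic neurons, fell as well, with means of 15.5 ± 1.66 in WT against 9.22 ± 0.955 CPM in KO (n = 4 each, SD, edgeR adjusted p = 0.00987). The part of sensory neurons in the Isl2 difference was not tested.

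Ratios of read counts within a library do not depend on its scaling. Isl2 had 2.31, 2.85, 2.74 and 2.60 reads per Mnx1 read in WT replicates 1 to 4. In KO replicates 1 to 4 it had 2.20, 2.03, 2.39 and 1.61. The mean log2 ratio was 1.39 ± 0.13 in WT and 1.02 ± 0.25 in KO (n = 4 each, SD), and the groups overlapped through WT replicate 1 and KO replicate 3. Set against its paralogue Isl1, which both motor and sensory neurons express, Isl2 had 0.344 to 0.427 reads per Isl1 read in WT and 0.306 to 0.442 in KO. That difference of mean log2 ratios, −0.08, was smaller than the SD in either group (0.13 in WT, 0.22 in KO). Isl1 itself had 85.4 ± 14.6 in WT against 67.2 ± 9.19 CPM in KO (n = 4 each, SD, log2 fold change −0.34, edgeR adjusted p = 0.751).

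Lhx3, the LIM homeobox partner of Isl1 in motor neurons that V2 interneurons also express, was not followed as 1 of the 10 but separated from Mnx1. Lhx3 had 1.56, 1.59, 1.52 and 1.48 reads per Mnx1 read in WT replicates 1 to 4. It had 2.299, 2.26, 2.66 and 2.16 in KO replicates 1 to 4. The 4 WT libraries lay within a narrow band and every KO library was above it (mean log2 ratio 0.62 ± 0.04 in WT, 1.23 ± 0.13 in KO, n = 4 each, SD). The V2 interneuron list had 4 of 8 members rising and 0 falling, where 0.299% of all tested genes were called. Its summed level was 85.2 to 92.1 CPM in WT and 128 to 131 CPM in KO. Lhx3 is 1 of these 4 and part of the sum (18.9 ± 1.14 CPM in WT, 27.9 ± 3.07 CPM in KO, n = 4 each, SD), so the list is not separate from the ratio. None of the 8 was at 0, and the part of V2 neurons in the ratio was not tested.

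**Figure D2:**
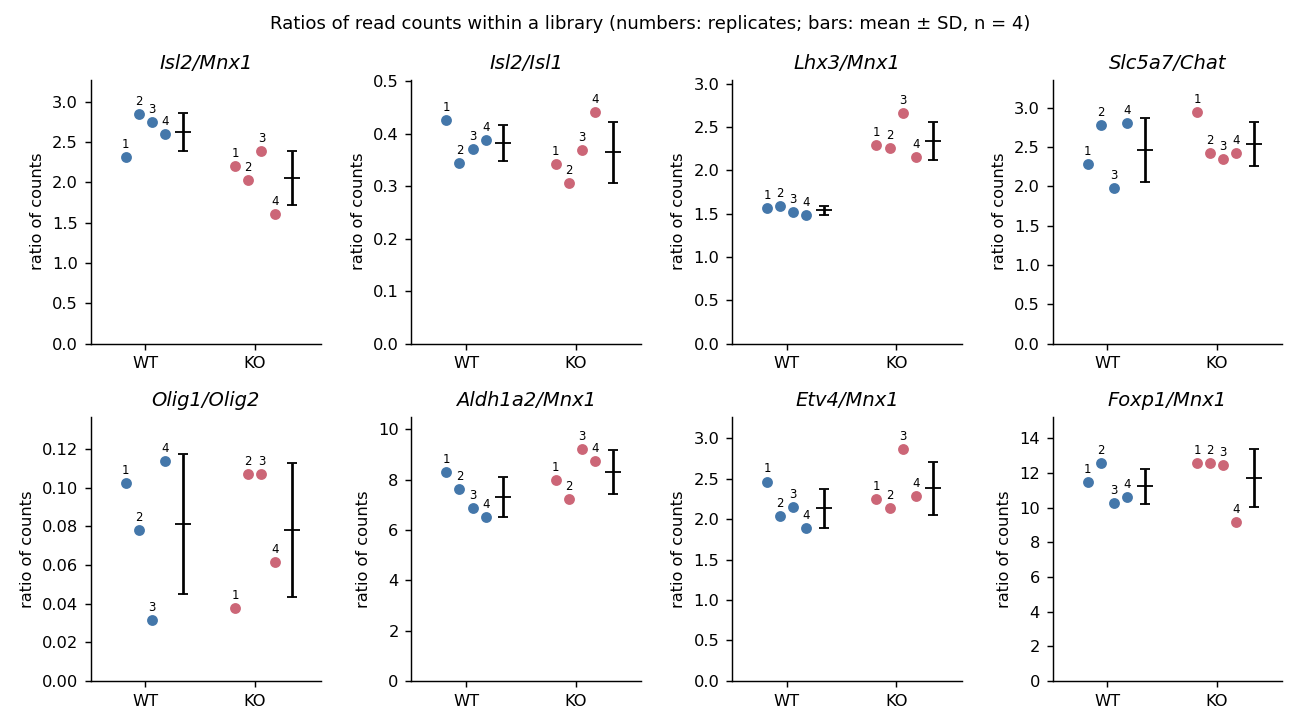
Ratios of the read counts of 2 genes within each library (vertical axes, from 0) for WT (blue) and KO (red), with replicate numbers beside the points and the mean ± SD (n = 4) as a bar. Lhx3 per Mnx1 separates the groups (1.48 to 1.59 against 2.16 to 2.66), while the other 7 ratios overlap.

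The cholinergic genes were low in both genotypes, and neither of the measured pair passed the test. Chat (ENSMUSG00000021919, chromosome 14, 32408203 to 32465989, minus strand), which encodes the enzyme that makes acetylcholine, stood at 3.52, 4.21, 5.06 and 3.70 CPM in WT replicates 1 to 4. It stood at 3.50, 4.80, 4.69 and 4.77 CPM in KO replicates 1 to 4. KO replicate 1 was the lowest of the 8 libraries and the other 3 KO libraries lay within the WT range. The means were 4.12 ± 0.688 in WT against 4.44 ± 0.626 CPM in KO (n = 4 each, SD), a log2 fold change of 0.12 (SE 0.15, 95% interval −0.21 to 0.44, edgeR adjusted p = 0.957). Among libraries high in Y-linked genes the difference of mean log2 CPM was −0.17, and among those low in them 0.39, so its direction was not the same in both. With 2 libraries of each group in each class, this was not particular to Chat. The sign also differed for Aldh1a2 (−0.04 and 0.29), Etv4 (−0.04 and 0.24), Foxp1 (0.04 and −0.04) and Olig1 (0.29 and −0.63). Isl2, Olig2 and Slc5a7 kept their sign, and Mnx1 had −0.11 among the high and 0.0 among the low libraries. Between 97 and 237 reads per library carried the Chat values.

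The vesicular acetylcholine transporter gene Slc18a3 (chromosome 14, 32462438 to 32464850, minus strand) lies inside Chat on the same strand, and in the annotation no exon of either overlaps the other (0 bp). The antisense gene Gm2990 also overlaps the Chat locus, with 0 bp shared between exons. How the annotation used for counting divided this locus is not known here.

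Slc5a7 (ENSMUSG00000023945, chromosome 17, 54273590 to 54299034, minus strand) encodes the high-affinity choline transporter that brings choline back into the nerve terminal. It stood at 8.02, 11.7, 9.995 and 10.4 CPM in WT replicates 1 to 4, and KO replicates 1 to 4 held 10.3, 11.7, 11.02 and 11.54 CPM. WT replicate 1 was the lowest library, and all KO libraries lay within the WT range. The means were 10.03 ± 1.52 in WT against 11.1 ± 0.603 CPM in KO (n = 4 each, SD), a log2 fold change of 0.16 (SE 0.11, 95% interval −0.08 to 0.40, edgeR adjusted p = 0.901). Per Chat read there were 1.98 to 2.81 Slc5a7 reads in WT and 2.35 to 2.95 in KO, with mean log2 ratios 0.05 apart. Ache, which encodes the enzyme that breaks acetylcholine down, had 20.7 ± 4.52 in WT against 19.97 ± 2.85 CPM in KO (n = 4 each, SD, log2 fold change −0.04, edgeR adjusted p = 0.988).

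The genes tied to motor columns and pools were well measured, and none was called. Foxp1 (ENSMUSG00000030067, chromosome 6, 98925338 to 99522721, minus strand), the forkhead factor that acts with Hox proteins to set the limb and preganglionic columns, was the most even. It stood at 136, 139, 136 and 139.6 CPM in WT replicates 1 to 4, and KO replicates 1 to 4 held 141, 141, 132 and 137 CPM. The KO libraries lay on both sides of the WT range, 2 above it and 1 below. The means were 138 ± 1.76 in WT against 138 ± 4.44 CPM in KO (n = 4 each, SD), and the 95% interval of the log2 fold change of 0.00 (SE 0.04, edgeR adjusted p = 0.999) ran from −0.08 to 0.08. A KO level under 0.95 or over 1.06 times that of WT therefore lay outside the interval, the narrowest among the 8 tested genes. The WT coefficient of variation, 1.28%, was close to the counting error of 1.49%, while that of KO, 3.22%, was above its counting error of 1.69%.

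Aldh1a2 (ENSMUSG00000013584, chromosome 9, 71215789 to 71296243, plus strand) encodes a retinaldehyde dehydrogenase that makes retinoic acid in limb-level motor neurons and also in somites and meninges. It stood at 98.7, 84.0, 91.1 and 85.7 CPM in WT replicates 1 to 4, and KO replicates 1 to 4 held 89.6, 81.2, 97.6 and 130.2 CPM. KO replicate 4 was above every WT library, KO replicate 2 below every WT library and the other KO libraries within the WT range. The means were 89.9 ± 6.59 in WT against 99.6 ± 21.4 CPM in KO (n = 4 each, SD), a log2 fold change of 0.15 (SE 0.13, 95% interval −0.15 to 0.45, edgeR adjusted p = 0.932). Without KO replicate 4 it was −0.01.

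Etv4 (ENSMUSG00000017724, chromosome 11, 101769742 to 101785371, minus strand), also called Pea3, is an ETS factor that target-derived GDNF induces in limb motor pools and that is found in other growth-factor-responsive tissues too. It stood at 29.3, 22.5, 28.5 and 25.0 CPM in WT replicates 1 to 4, and KO replicates 1 to 4 held 25.3, 24.0, 30.3 and 33.9 CPM. KO replicates 3 and 4 were above every WT library and the other KO libraries within the WT range. The means were 26.3 ± 3.17 in WT against 28.4 ± 4.60 CPM in KO (n = 4 each, SD), a log2 fold change of 0.11 (SE 0.12, 95% interval −0.16 to 0.37, edgeR adjusted p = 0.951). Without KO replicate 4 it was 0.01.

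The 3 highest libraries for Aldh1a2 and for Etv4 were the same, KO replicate 4, KO replicate 3 and WT replicate 1, and came from both genotypes. These were also the 3 with the least Hoxc10, at 7.0, 7.5 and 16.2 CPM. The same 3 had the lowest summed level of pan-neuronal genes, at 3046.6, 3086.8 and 3256.4 CPM, and were low in Y-linked genes, as was WT replicate 4. Hoxc10 was singled out after its values were seen. The parts of the caudal extent of the tissue, of its neuronal share and of the Y-linked class in these 2 genes were not tested. Foxp1 differed from them, its lowest library being KO replicate 3 and its highest being KO replicates 1 and 2. The list of 16 sclerotome, meninges and mesenchyme genes had a summed level of 3205 to 3781.4 CPM in WT and 3542.1 to 4298.3 CPM in KO. KO replicate 4 was the highest in this sum and in Aldh1a2. WT replicate 1, the second highest in Aldh1a2, had the lowest sum, and KO replicate 2, the lowest in Aldh1a2 at 81.2 CPM, had the second highest sum at 4132.8 CPM. None of the 16 was at 0, 0 rose, 0 fell and the median log2 fold change was 0.15, with 15 positive and 1 negative. The part of mesenchyme in the Aldh1a2 values was not tested.

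**Figure D3:**
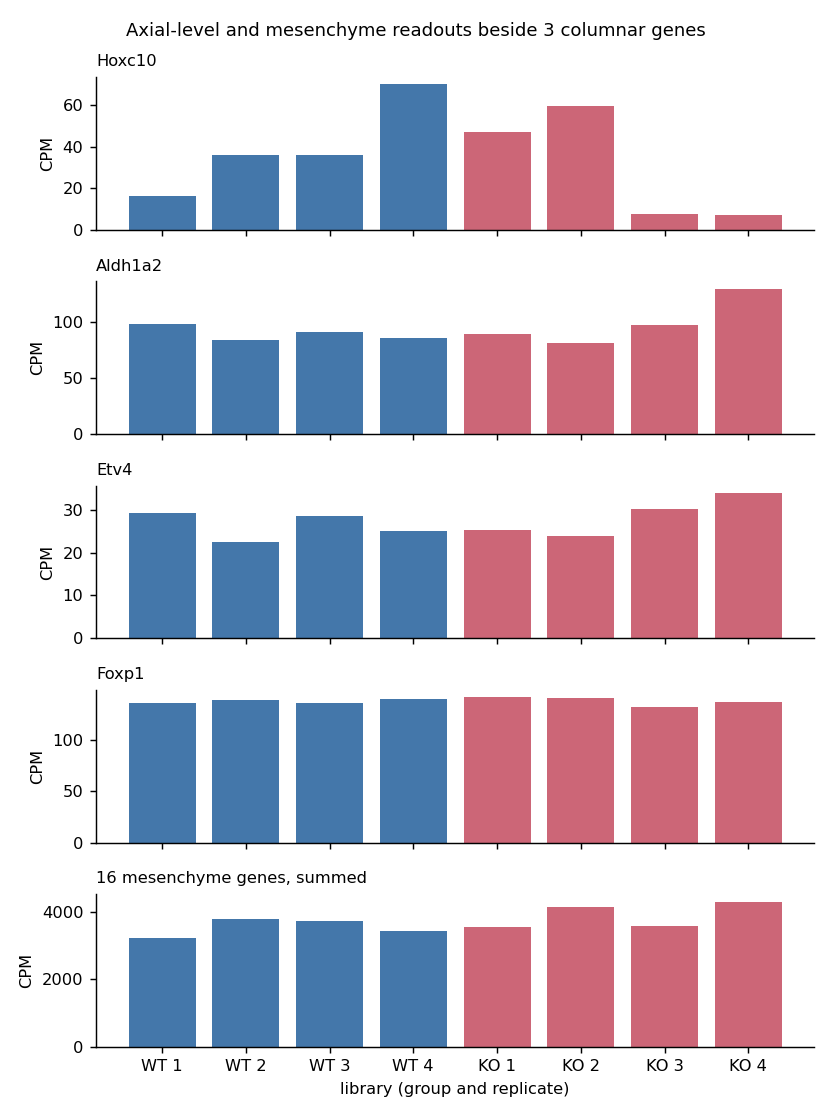
CPM (vertical axes, from 0) of Hoxc10, Aldh1a2, Etv4 and Foxp1, and the sum over 16 mesenchyme genes, as bars for each WT library (blue) and KO library (red). The libraries with the shortest Hoxc10 bars (KO 4, KO 3 and WT 1, at 7.0, 7.5 and 16.2 CPM) have the tallest Aldh1a2 and Etv4 bars, while Foxp1 stays between 132 and 141 CPM.

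Compared per kilobase of annotated exon, the levels in WT ran over more than 2 orders of magnitude (n = 9 genes). Aldh1a2 stood at 39.7 ± 2.91 CPM per kb, Isl2 at 14.8 ± 1.74, Foxp1 at 10.01 ± 0.128, Etv4 at 8.47 ± 1.02 and Mnx1 at 5.48 ± 0.476 CPM per kb (n = 4 each, SD). Slc5a7 followed at 1.78 ± 0.269, Olig2 at 1.09 ± 0.109, Chat at 0.876 ± 0.146 and Olig1 at 0.106 ± 0.053 CPM per kb (n = 4 each, SD). Of neighbours in this order only Olig2 and Chat had overlapping WT ranges, 0.976 to 1.23 and 0.749 to 1.08 CPM per kb. In KO the level of Isl2 was 11.01 ± 0.502 CPM per kb and that of Foxp1 10.01 ± 0.323 (n = 4 each, SD). Those ranges, 10.4 to 11.52 and 9.59 to 10.3 CPM per kb, stayed apart by a smaller margin than in WT, where the lowest Isl2 library stood at 12.5 and the highest Foxp1 library at 10.2 CPM per kb.

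Of the other listed motor neuron genes, only Lhx3 was called. Of 21 listed factors and markers outside the 10, all tested, 1 rose (Lhx3) and 0 fell, where 0.299% of all tested genes were called. Their median log2 fold change was −0.02, with 8 positive and 13 negative. Lhx3 rose by 0.56 on the log2 scale (SE 0.08, edgeR adjusted p = 0.0169). Lhx4, its paralogue in motor and V2 neurons, had 28.6 ± 2.07 in WT against 34.02 ± 1.74 CPM in KO, and Lmo4, a LIM-only cofactor, 84.4 ± 1.90 and 92.8 ± 0.873 CPM (n = 4 each, SD). The groups did not overlap for either gene, and neither passed the test in edgeR (adjusted p = 0.327 and 0.337). Pou3f1, a POU factor of particular motor columns, had a log2 fold change of 0.01, and Ret, the GDNF receptor gene that motor and sensory neurons share, one of −0.05. The summed level of the 21 was 2021.8 to 2337.3 CPM in WT and 2167.9 to 2302.5 CPM in KO.

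**Figure D4:**
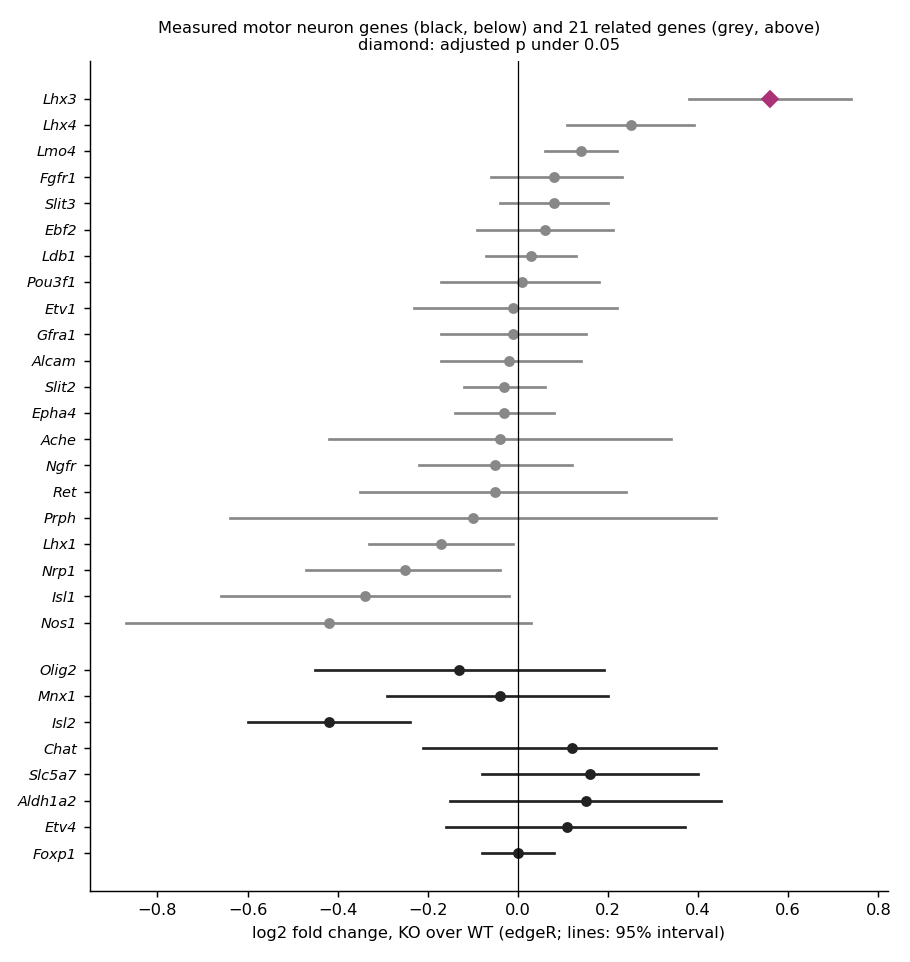
Log2 fold change of KO over WT from edgeR (horizontal axis) with its 95% interval for the 8 tested motor neuron genes (black, below) and 21 related genes (grey, above), a diamond marking an adjusted p under 0.05. Isl2 at −0.42 is the 1 black point whose interval does not reach 0, and Lhx3 at 0.56 is the 1 diamond.

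The Hox genes that set columns were not called either, with 0 of 9 rising or falling and a median of −0.06. Hoxc9, the thoracic factor, had 68.4 ± 16.4 in WT against 60.2 ± 10.1 CPM in KO (n = 4 each, SD, log2 fold change −0.17, edgeR adjusted p = 0.955). Its lowest library was WT replicate 1 at 44.0 CPM, beside 74.2 to 78.0 CPM in the other WT libraries. Hoxc6, a brachial-level factor, stood at 94.98 CPM in WT replicate 1 and at 144 to 156 CPM in the other WT libraries. WT replicate 1 thus held less of both than the rest of its group.

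Likeness to Mnx1 was measured within genotype. Over the 8 libraries, with log2 CPM centred in each group, the 5 highest Pearson correlations among 11828 genes were with Acot7, Rps4l, Bloc1s1, Ap2s1 and Slc25a1, at 0.968 to 0.981. The same libraries give every such value and KO replicate 4, the highest Mnx1 library, weighs on each, so they describe these libraries only. Among the genes followed, Aldh1a2 had 0.716, Etv4 0.60, Isl2 0.226, Slc5a7 0.044 and Foxp1 0.017.

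Markers of other cells in the tissue were read beside these results. Of 6 V1 interneuron markers 1 fell and 0 rose, and 5 had negative and 1 positive log2 fold changes with a median of −0.29. Their summed level was 484 to 574 CPM in WT and 507 to 528 CPM in KO. Most of that sum was Foxp4, at 331 ± 15.4 in WT against 345 ± 15.9 CPM in KO (n = 4 each, SD), so it says little of the other V1 markers. Of 8 markers of crest, glia and oligodendrocyte precursors 1 fell and 0 rose (727 to 873 and 766 to 881 CPM), the 1 being Foxd3, which is in both lists. Of these 8, 6 had positive and 2 negative log2 fold changes, with a median of 0.13. Of 12 skeletal muscle markers 0 passed, 10 had positive and 2 negative log2 fold changes with a median of 0.28, and their sum was 915 to 1052.6 CPM in WT and 998 to 1386.3 CPM in KO. With the score made from muscle and mesenchyme genes in the model, the 48 calls over all genes became 1. That score did not overlap between the groups, at 5.937 to 6.02 in WT and 6.027 to 6.274 in KO. A fit with both terms therefore cannot tell the score from genotype, and the loss of calls has no reading as to cause. None passed either of 6 erythroid (3105.7 to 4090.8 and 2237.3 to 5173.1 CPM) and 5 endothelial markers (341 to 394 and 345 to 409 CPM). Of 7 pan-neuronal genes 0 passed, all 7 had negative log2 fold changes with a median of −0.15, and their sum was 3256.4 to 3757.2 CPM in WT and 3046.6 to 3468.1 CPM in KO. No listed marker measured here was at 0 in all libraries.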

How the data were processed

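Total RNA of 8 samples, 4 WT and 4 KO by their titles, was sequenced. STAR 2.3.0e and featureCounts 1.4.6-p1 are among the tools, and mm10 is the build, that stand in the submitters' processing notes. The authors deposited whole-number read counts per Ensembl gene for each library. The strand setting and annotation release were not given in the sources used here, so reads of overlapping genes could be assigned otherwise. The 5 summary rows held 0 counts and were left out. Symbols, coordinates and exon lengths came from GENCODE M21 (GRCm38, the assembly of mm10), which matched 36602 of 38355 identifiers. Unmatched ones held 0.263% of counts.

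All 8 libraries were fitted in edgeR 4.0.16 (R 4.3.3) with filterByExpr, TMM scaling, a robust quasi-likelihood fit with no term but group. P-values were adjusted by Benjamini-Hochberg over 16068 genes. Intervals are 95% and SE is the size of the log2 fold change over the square root of F. The fit was tested on simulated data. CPM uses TMM-adjusted totals. No pair of libraries in a group agreed within sampling noise. The alternatives covered scaling, filtering, DESeq2 1.42.0, limma-voom (limma 3.58.1), a replicate block, a muscle and mesenchyme score and leaving out each library. A thinned WT replicate 1 and a Y-gene score were added after the data were seen. The genes and lists were chosen with earlier results of these data known. The 10 genes were named always, and of each other list the genes past the threshold and up to 2 more with the smallest p. For likeness, the 5 genes of at least 5 CPM most correlated with Mnx1 were named. A few genes named by that rule are left out of the text. Isl1, Ache, Pou3f1, Ret, Hoxc6, Hoxc10 and Foxp4 were named after their values were seen.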

Additional observations from a re-analysis of the deposited data

Results flagged for a closer look

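2 samples stood apart from the other 3 of their group in the level of a followed gene, by Dixon's gap test at its 95% critical value for groups of 4. Mnx1 was at 14.9 CPM in KO replicate 4, beside 10.6 to 11.2 CPM in the other KO libraries. Chat was at 3.50 CPM in KO replicate 1, beside 4.69 to 4.80 CPM in the others. The gap made up 0.846 of the range for Mnx1 and 0.909 for Chat. There were 22 groups examined, over the 9 measured genes with Lhx3 and Isl1 added, and chance flags about 1 in 20 groups.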

How the results depend on the processing

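The number of followed genes called, 0, was 1 with no filter, DESeq2, limma-voom or without WT replicate 1, each time Isl2, and 0 in the other 15 alternatives. Over all genes, no filter gave 71 calls of 26003 tested and DESeq2 100 of 25968 with a p-value, not all of which need have an adjusted p. The calls were 115 of 16068 with limma-voom and 133 of 16229 without WT replicate 1. Left-out libraries gave 0 to 1. The 48 calls over all genes became 100 with DESeq2, 115 with limma-voom, 16 with a replicate block and 1 with the muscle and mesenchyme score. That score did not overlap between the groups, so the last fit cannot tell it from genotype. Leaving out 1 library gave 15 to 133, 133 without WT replicate 1 and 15 without KO replicate 3. The cause was not tested. No other followed gene was called under any alternative. Isl2 was lower in all 19, from −0.49 to −0.27, and Slc5a7 positive in all 19, from 0.02 to 0.30. Mnx1 ranged from −0.27 to 0.10, Olig2 from −0.20 to 0.01, Chat from −0.20 to 0.26, Aldh1a2 from −0.19 to 0.29, Etv4 from −0.14 to 0.25 and Foxp1 from −0.01 to 0.14. Scaling to pan-neuronal counts moved the median of all genes to 0.136. Replicate numbers gave correlations of deviations of −0.238, 0.487, −0.423 and 0.216 for pairs 1 to 4, so they did not pair the libraries, and with a replicate block Isl2 had −0.41 (adjusted p = 0.125). Left-out libraries moved the difference of mean log2 ratios between −0.44 and −0.25 for Isl2 to Mnx1, between 0.54 and 0.64 for Lhx3 to Mnx1, and between −0.43 and 0.28 for Olig1 to Olig2, where reads were fewest.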
